A study of Trichoderma reesei with 8 samples.

Results

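The genes described here encode 2 class II hydrophobins and 3 cell wall proteins of *Trichoderma reesei*, a filamentous fungus used for cellulase production. They are 5 of the 9126 gene models counted in every library and 5 of 65 genes that the study listed as straw-induced, the others being 33 genes for carbohydrate-active enzymes (CAZy genes) and 27 genes of other functions. The list was drawn up on the mean RPKM (reads normalized to transcript length and to the library total), which had to lie above 50 on straw and over 20-fold above that at 48 h glucose, and the 5 were then taken from it by their annotation. The wild-type strain QM6a was used in all 3 conditions, and the mycelia of all 3 had first been grown from conidia in liquid minimal medium with 1% glucose for 48 h. In the 5 h glucose condition (2 libraries) glucose had been added for 5 h, to 1%, to cultures already on wheat straw. In the 24 h straw condition (3 libraries) washed mycelia had been kept for 24 h with 1% straw as the carbon source, and in the 48 h glucose condition (3 libraries) the mycelia were taken at the end of the first growth. The 5 h glucose cultures therefore also held straw, and they are not cultures returned to glucose alone.

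Hydrophobins are small secreted proteins that gather at interfaces between water and air or between water and a hydrophobic solid. Filamentous fungi use them to wet or coat surfaces, to raise hyphae into the air and to cover their spores. The HsbA protein of *Aspergillus oryzae* also binds hydrophobic surfaces but is no hydrophobin, and it recruits a cutinase to a polyester. CFEM domains are cysteine-rich domains found in fungal proteins outside the cell, many of them bound to the wall or the membrane.

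The gene *hfb2* (transcript ID 119989) encodes the hydrophobin HFB2 and lies on scaffold 2 of assembly version 2.0, where the RefSeq annotation places it at 17118 to 17828. The gene *hfb3* (123967) encodes the hydrophobin HFB3 and lies on scaffold 29 at 139836 to 140658. The gene 74282 (scaffold 1, 2815396 to 2817820) is the orthologue of the cell wall protein gene QI74 of *Trichoderma harzianum*. The gene 124295 (scaffold 54, 28557 to 29236) encodes a cell wall protein with a CFEM domain, and 104277 (scaffold 3, 718756 to 719283) a cell wall protein with an HsbA domain. The 5 genes lie on 5 different scaffolds. The deposited transcript lengths were 569 bases for *hfb2*, 682 for *hfb3*, 2425 for the QI74 orthologue, 589 for the CFEM-domain gene and 528 for the HsbA-domain gene. The annotated span was longer than the transcript by 142 bases for *hfb2*, 141 for *hfb3* and 91 for the CFEM-domain gene, and by 0 bases for the others. On scaffold 29 lie 4 further straw-induced genes, the nearest of which encodes a methanol oxidase (123978) and begins 114292 bases away. The cellobiohydrolase gene *cbh1* (123989) lies 191719 bases from *hfb3*.

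Between 798550 and 950244 sense reads were counted on genes in the 5 h glucose libraries, between 2473359 and 2997433 in the straw libraries and between 1337099 and 1704969 in the 48 h glucose libraries. These reads were 8.78% ± 1.99 (SD, n = 2) at 5 h glucose, 18.9% ± 1.11 (SD, n = 3) for straw and 11.3% ± 1.07 (SD, n = 3) at 48 h glucose of the larger library totals by which the deposited RPKM had been divided (RPKM totals). A level at 5 h glucose relative to straw therefore depended on the scaling. The counts were normalized with TMM, which sets the bulk of the genes equal between libraries, and under TMM the median log2 fold change of the 7211 genes tested was -0.04 for 5 h glucose over straw. With the RPKM totals that median was -1.31, and 6.14% of the genes were called higher and 67.3% lower, against 28.5% higher and 30% lower under TMM. For 5 h glucose over 48 h glucose the median moved by -0.46 and for straw over 48 h glucose by 0.80. Changes are given below under TMM, which is relative to the bulk of the genes, with the RPKM beside them. All 5 genes passed the filter on low counts. The median squared difference between straw libraries 1 and 3 was 1.65 times that of counting noise, against 20.8 times or more for all other pairs of libraries of one condition (genes with at least 2000 reads in a pair), so the p values and SDs for straw may be too small.

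On straw all 5 genes were highly expressed, and at 48 h glucose none had more than 14 reads or 0.944 RPKM in any library. This contrast chose the genes, and its values are a description with no test. The RPKM of *hfb2* was 460, 579 and 471 in the 3 straw libraries, against 0.754, 0.824 and 0.797 in the 48 h glucose libraries, where it had 6 reads each time. On straw it ranked between 18 and 19 among the 9126 genes of a library. The QI74 orthologue came next, with 252, 317 and 249 RPKM on straw, against 0.295, 0.451 and 0.156 RPKM at 48 h glucose, a ratio of 517 under TMM from 5 to 14 reads a library at 48 h glucose. With 164, 212 and 171 RPKM on straw, *hfb3* stood at ranks 80 to 97, against 0.944, 0.115 and 0.554 RPKM at 48 h glucose. The straw ranges of *hfb2*, the QI74 orthologue and *hfb3* did not overlap with one another. In these RNA samples of whole mycelia, fewer cells that transcribe a gene and fewer transcripts per cell cannot be told apart.

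The HsbA-domain gene had 82.5, 90.5 and 90.0 RPKM on straw, against 0, 0.296 and 0.143 RPKM at 48 h glucose. Those 48 h glucose values rest on 3 reads in all, against 1971 reads on straw, a ratio of 355 with an exact 95% interval of 121 to 1725. The CFEM-domain gene was the lowest of the 5 on straw, with 53.9, 68.6 and 52.4 RPKM, against 0.243, 0.265 and 0 RPKM at 48 h glucose. It had 4 reads in all at 48 h glucose and 1444 on straw, a ratio of 195 with an exact 95% interval of 76.1 to 718. These intervals cover counting error only. With a mean of 58.3 ± 8.93 RPKM (SD, n = 3) on straw, the CFEM-domain gene lay just above the minimum of 50 RPKM for the list. A gene for a cell wall protein with a lipid (GPI) anchor (68067), related to *meu10* of *Schizosaccharomyces pombe*, lay below it with 36.0 ± 2.08 RPKM (SD, n = 3).

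**Figure D1:**
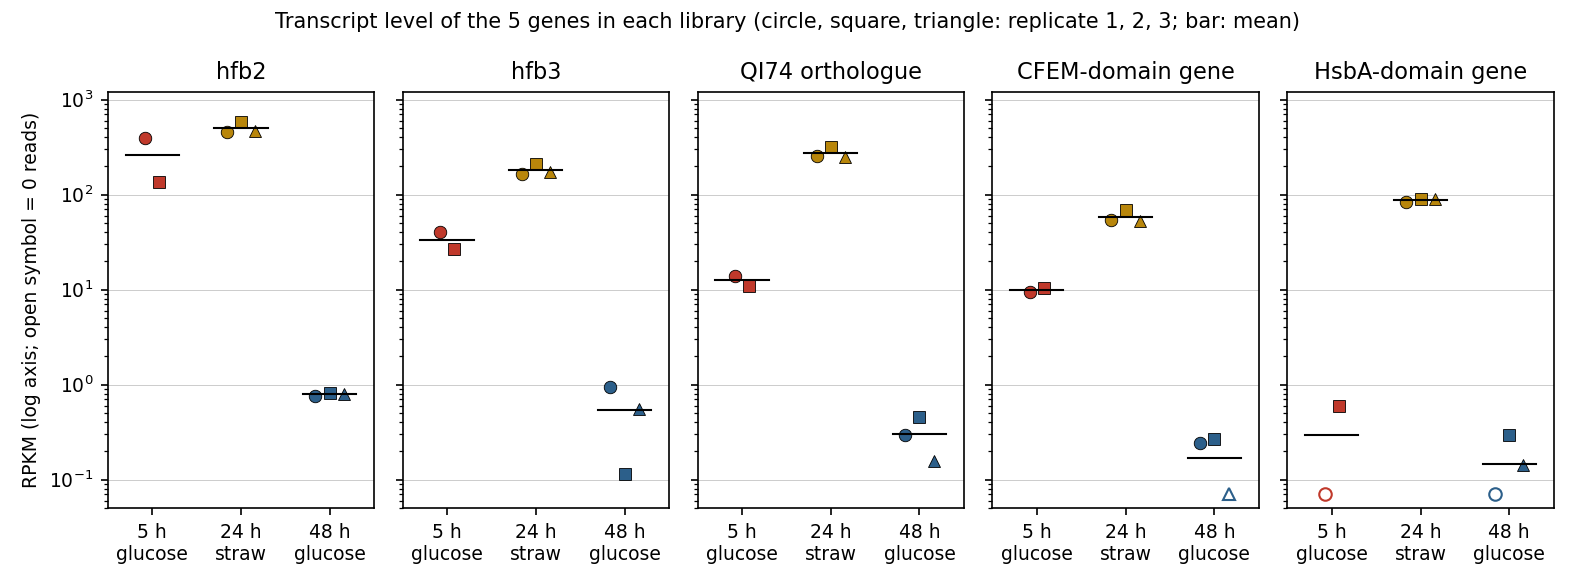
RPKM of each of the 5 genes (log axis) in the 2 libraries from 5 h glucose, the 3 from 24 h straw and the 3 from 48 h glucose, with open symbols for libraries with 0 reads and a bar at the mean. At 5 h glucose *hfb2*, *hfb3*, the QI74 orthologue and the CFEM-domain gene lie between their straw and 48 h glucose levels, and the HsbA-domain gene lies with its 48 h glucose level.

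Between any 2 straw libraries these genes differed by at most 1.23-fold under TMM. Under TMM, straw library 1 differed from library 2 by log2 values of -0.29 to -0.06 and from library 3 by -0.14 to 0.03. Between the same pairs the median size of the difference was 0.53 and 0.03 on the log2 scale for the 33 CAZy genes, and 0.16 and 0.08 for the 3799 genes with a mean of at least 50 TMM-normalized CPM (counts scaled to a common library size). All but the HsbA-domain gene thus differed more between libraries 1 and 2 than the median of these 3799 genes. The same held between libraries 2 and 3, where that median was 0.15. Of the summed RPKM of the 5 genes, *hfb2* held between 45.4% and 45.7% in the 3 straw libraries, the QI74 orthologue between 24.1% and 25.0%, *hfb3* between 16.2% and 16.7%, the HsbA-domain gene between 7.14% and 8.72%, and the CFEM-domain gene between 5.07% and 5.41%. The proportions of the 5 transcripts were thus nearly equal in the 3 straw libraries, of which libraries 1 and 3 differed by little more than counting noise.

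At 5 h after the addition of glucose 4 of the 5 genes were lower than on straw, at an adjusted p below 0.05 in edgeR's quasi-likelihood test, where 30% of all genes tested were lower. The choice of the genes used the straw libraries but not the 5 h glucose libraries. The decreases were of unequal size. The HsbA-domain gene fell furthest, the QI74 orthologue fell about 9-fold, and *hfb3* and the CFEM-domain gene fell by similar factors, while for *hfb2* no difference passed the test.

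The hydrophobin gene *hfb2* had 391 and 135 RPKM at 5 h glucose, against 460, 579 and 471 RPKM on straw. In RPKM both 5 h glucose libraries lay below all 3 straw libraries, as 72.6% of the genes tested did. In TMM-normalized CPM it had 2207 and 1166 at 5 h glucose, against 1347, 1608 and 1394 on straw, so that the conditions overlapped, with one 5 h glucose library above and the other below every straw library. Its log2 fold change under TMM was 0.22 ± 0.23 (SE) with an adjusted p of 0.432 (edgeR). Here and below, the SE of a log2 fold change was calculated back from the F statistic of the test and is approximate. A 95% interval from this SE ran from 0.852-fold to 1.59-fold. The 5 h glucose libraries 1 and 2 stood at 152% and 80.4% of the straw mean, the latter outside that interval. With the RPKM totals the log2 fold change was -0.94 ± 0.31 (SE) with an adjusted p of 0.0111, and this fold change lay 0.37 above the median of all genes under that scaling. Without 5 h glucose library 1 the log2 fold change under TMM was -0.36 (adjusted p = 0.128), and without library 2 it was 0.55 (adjusted p = 0.0184). Neither a fall nor a rise of *hfb2* at 5 h was therefore independent of the scaling and of the library, and a drop in RPKM went with the drop in RPKM of most genes. By RPKM the gene remained abundant and ranked 25 and 65 among the 9126 genes in the 5 h glucose libraries.

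The other hydrophobin gene, *hfb3*, had 40.6 and 26.4 RPKM at 5 h glucose, against 164, 212 and 171 RPKM on straw. In TMM-normalized CPM its 5 h glucose libraries were almost equal (275 and 273), against 576, 705 and 608 CPM on straw, and the conditions did not overlap on either scale. In TMM-normalized CPM 38.5% of the genes tested had both 5 h glucose libraries below all straw libraries. The log2 fold change of *hfb3* was -1.20 ± 0.22 (SE; adjusted p = 0.000145, edgeR), a 2.30-fold decrease, and under the RPKM totals it was -2.45.

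The CFEM-domain gene had 9.31 and 10.3 RPKM at 5 h glucose, against 53.9, 68.6 and 52.4 RPKM on straw, with no overlap. Its log2 fold change was -1.24 ± 0.24 (SE; adjusted p = 0.000238, edgeR), a 2.36-fold decrease, and under the RPKM totals it was -2.56. These are 43 and 78 reads at 5 h glucose, against 428, 508 and 508 reads on straw, and the 5 h glucose libraries differed by 1.68-fold under TMM.

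The QI74 orthologue had 14.0 and 11.0 RPKM at 5 h glucose, against 252, 317 and 249 RPKM on straw. Its log2 fold change was -3.17 ± 0.25 (SE; adjusted p = 6.47e-09, edgeR), an 8.99-fold decrease, and under the RPKM totals it was -4.45. This gene was above *hfb3* on straw and below it at 5 h glucose, in RPKM.

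The HsbA-domain gene had 0 and 0.588 RPKM at 5 h glucose, from 0 and 4 reads, against 82.5, 90.5 and 90.0 RPKM on straw, from 587, 601 and 783 reads. In 5 h glucose library 1 a level of 0.725 RPKM would have given 3 reads, so the absence of reads there allows a level up to that limit. The log2 fold change was -6.55 ± 0.44 (SE from the F statistic; adjusted p = 8.8e-10, edgeR). The ratio of the summed reads, scaled by the TMM library sizes, was 96.6-fold lower at 5 h glucose, with an exact 95% interval of 37.7 to 355. This interval covers counting error only and is still wider than a 95% interval from the SE, so the SE is too small. Without 5 h glucose library 1 the log2 fold change was -5.66, and without library 2, which leaves 0 reads at 5 h glucose, the fit gave -11.8, which is no bound.

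**Figure D2:**
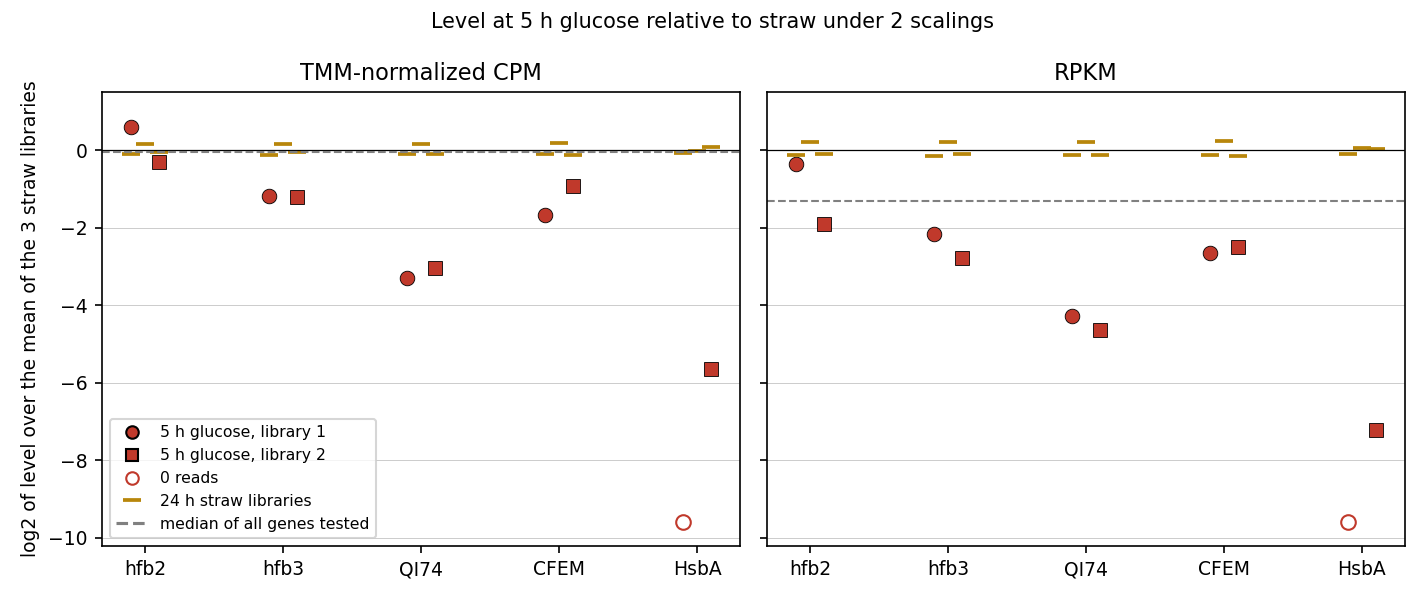
Level of each gene in the 2 libraries from 5 h glucose, and in the 3 straw libraries, as log2 of its ratio to the straw mean, in TMM-normalized CPM (left) and RPKM (right), with the median fitted log2 fold change of all 7211 genes as a dashed line (-0.04 under TMM and -1.31 with the RPKM totals). Only *hfb2* has a 5 h glucose library above the straw libraries under TMM, and an open circle marks the library with 0 reads of the HsbA-domain gene, drawn at the lower edge.

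Against 48 h glucose, the level at which the cultures had started, 4 of the 5 genes were still far higher at 5 h glucose, where 25.7% of all genes tested were higher. The genes had been chosen for a low level in the 48 h glucose libraries, which this comparison shares with the choice. The excess was 416-fold for *hfb2* (log2 fold change 8.70 ± 0.34) and 81.3-fold for *hfb3* (6.34 ± 0.32). For the CFEM-domain gene it was 77.3-fold (6.27 ± 0.45) and for the QI74 orthologue 57.5-fold (5.84 ± 0.30; SE from the F statistic throughout). Reads at 48 h glucose were few, with 4 in all for the CFEM-domain gene and 18 for *hfb2*, so these SEs may be too small. The largest of their 4 adjusted p values in edgeR's test was 7.53e-09, for the CFEM-domain gene. Both 5 h glucose libraries lay above all 48 h glucose libraries for each of these genes, in RPKM and in TMM-normalized CPM, as 15.1% and 32% of the genes tested did in the 2 units. With the RPKM totals the 4 log2 fold changes were between 5.37 and 8.34. That of *hfb3* was 6.95 under TMM without 48 h glucose library 1, which held 9 of its reads.

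The HsbA-domain gene was the exception. It had 4 reads in the 5 h glucose libraries together, against 3 in the 48 h glucose libraries, and the log2 fold change of 1.77 ± 1.10 (SE) did not pass the test (adjusted p = 0.194, edgeR). The ratio of the summed reads was 3.68, with an exact 95% interval of 0.623 to 25.1, so a return to the 48 h glucose level and a remainder some 25.1-fold above it could not be told apart at this depth. All 4 reads came from library 2. Without 5 h glucose library 1 the log2 fold change was 2.68 (adjusted p = 0.0446), and without library 2, which leaves 0 reads at 5 h glucose, the fit gave -3.51 (adjusted p = 0.422).

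How far the genes differed in their response was compared by ratios of counts within a library, in which the scaling of the libraries cancels. The ratios themselves still depend on the transcript lengths, which cancel only in the difference of a log2 ratio between conditions. Of the 10 pairs of genes, 9 had a log2 ratio of counts at 5 h glucose outside the range of the 3 straw libraries. The same count was not made for pairs of other genes, so it shows nothing particular to these genes. The pairs share genes, and those with the HsbA-domain gene rest on 0 and 4 of its reads at 5 h glucose. The design of 2 against 3 libraries allows no p below 0.1 in a two-sided exact permutation test, and these 9 pairs all reached 0.1 (0.111 after Benjamini-Hochberg adjustment over the 10 pairs). The pair of *hfb3* and the CFEM-domain gene was the exception, with log2 ratios of 2.32 and 1.57 at 5 h glucose, against 1.81, 1.84 and 1.92 on straw (exact permutation p = 0.8). The means differed by 0.09, with a spread of 0.54 (square root of the summed variances of the ratio in the 2 conditions). For *hfb2* over *hfb3* the log2 ratios were 3.00 and 2.09 at 5 h glucose, against 1.23, 1.19 and 1.20 on straw, so that the balance moved 2.54-fold towards *hfb2*. For *hfb3* over the QI74 orthologue they were -0.30 and -0.57 at 5 h glucose, against -2.45, -2.41 and -2.37 on straw, a shift of 3.94-fold. For *hfb2* over the QI74 orthologue the log2 ratios were 2.70 and 1.52 at 5 h glucose, against -1.22, -1.22 and -1.17 on straw, a difference of 3.32 (9.98-fold). This difference was 2.73 without 5 h glucose library 1 and 3.91 without library 2. Relative to the QI74 orthologue, both hydrophobin transcripts were thus higher at 5 h glucose than on straw in each 5 h glucose library.

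Together the 5 genes held 0.483% and 0.262% of the summed RPKM of a library at 5 h glucose, against 0.779%, 0.899% and 0.801% on straw and 0.00229%, 0.00215% and 0.00213% at 48 h glucose. The 5 h glucose share was 0.451 times the straw share and 170 times the 48 h glucose share, and both comparisons reached the smallest p that the exact permutation test allows (0.1, and 0.1 after adjustment over the 2 comparisons). The genes had been chosen for a high level on straw and a low level at 48 h glucose. Both comparisons therefore share libraries with the choice. Within this combined signal *hfb2* made up 85.9% and 73.7% at 5 h glucose, against 45.4%, 45.7% and 45.6% on straw. The QI74 orthologue made up 3.09% and 6.01% at 5 h glucose, against 24.9%, 25.0% and 24.1% on straw.

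**Figure D3:**
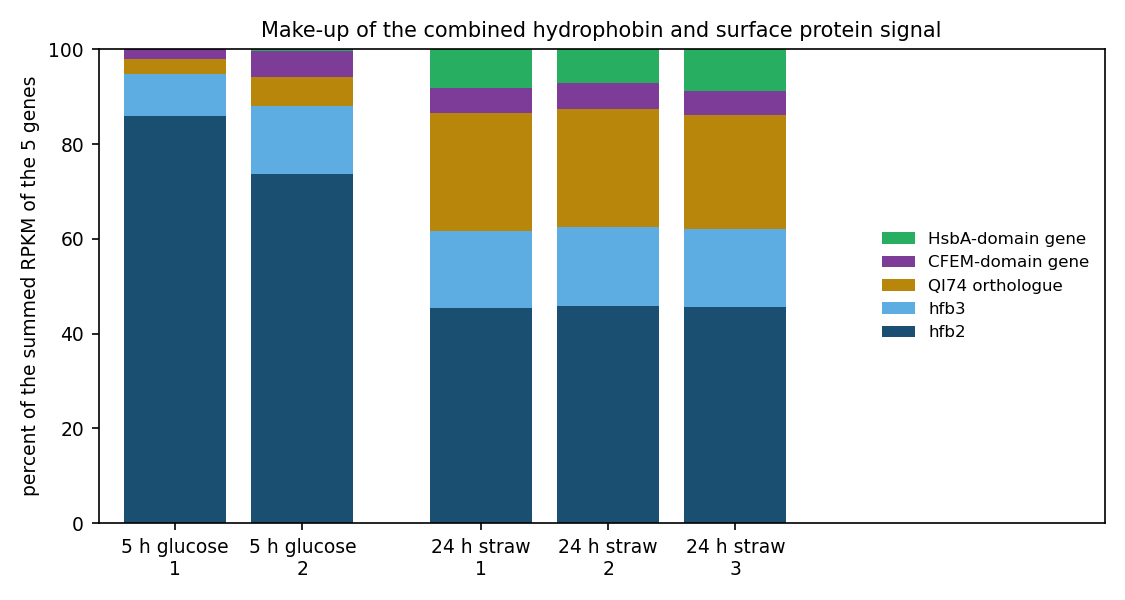
Percent of the summed RPKM of the 5 genes held by each gene in the 2 libraries from 5 h glucose (left) and the 3 from 24 h straw (right). The straw bars are nearly alike, with *hfb2* at 45.4% to 45.7%, and the 5 h glucose bars consist mostly of *hfb2* (85.9% and 73.7%).

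The 65 straw-induced genes were all chosen by the same criteria, so the level each kept at 5 h glucose, as a percent of its mean RPKM on straw, can be set side by side. The gene *hfb2* kept 52.2% (77.6% in 5 h glucose library 1 and 26.8% in library 2), *hfb3* 18.4%, the CFEM-domain gene 16.8%, the QI74 orthologue 4.60% and the HsbA-domain gene 0.335%. These values were at ranks 2, 3, 4, 13 and 34 of the 65. Ratios of TMM-normalized CPM gave ranks 2, 3, 4, 13 and 29, with 116%, 43.6%, 42.1%, 11.1% and 1.00% kept. The median of the 5 was 16.8%, against 0.139% for the 33 CAZy genes and 1.12% for the 27 other genes. None of the 33 CAZy genes kept as much as the QI74 orthologue, the highest being a beta-mannosidase (62166) with 4.09%.

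Above *hfb2* ranked only the gene for glutamine synthetase (123009), which assimilates ammonium, with 82.4% of its straw RPKM. Directly below the CFEM-domain gene came a transporter of the major facilitator superfamily (80863) with 13.6%. An oligopeptide transporter (120017) with 5.75% and the beta-mannosidase stood on either side of the QI74 orthologue. By RPKM the HsbA-domain gene stood between a candidate endo-β-1,6-galactanase (110894) with 0.345% and the xyloglucanase gene *cel74a* (49081) with 0.281%. By TMM-normalized CPM its neighbours were a flavin-containing monooxygenase (76696) with 1.04% and a methanol oxidase (123978) with 0.942%. Its place rests on 4 reads from 5 h glucose library 2, and the level kept was 0% in library 1 and 0.671% in library 2. The level of 4 of the 5 genes passed the test above 48 h glucose at 5 h, as did 7 of the 33 CAZy genes and 16 of the 27 others, beside 25.7% of all genes tested. The median log2 fold change of 5 h glucose over 48 h glucose was 6.27 for the 5 genes, 0.45 for the CAZy genes and 1.17 for the others, against 0.06 for all genes tested.

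**Figure D4:**
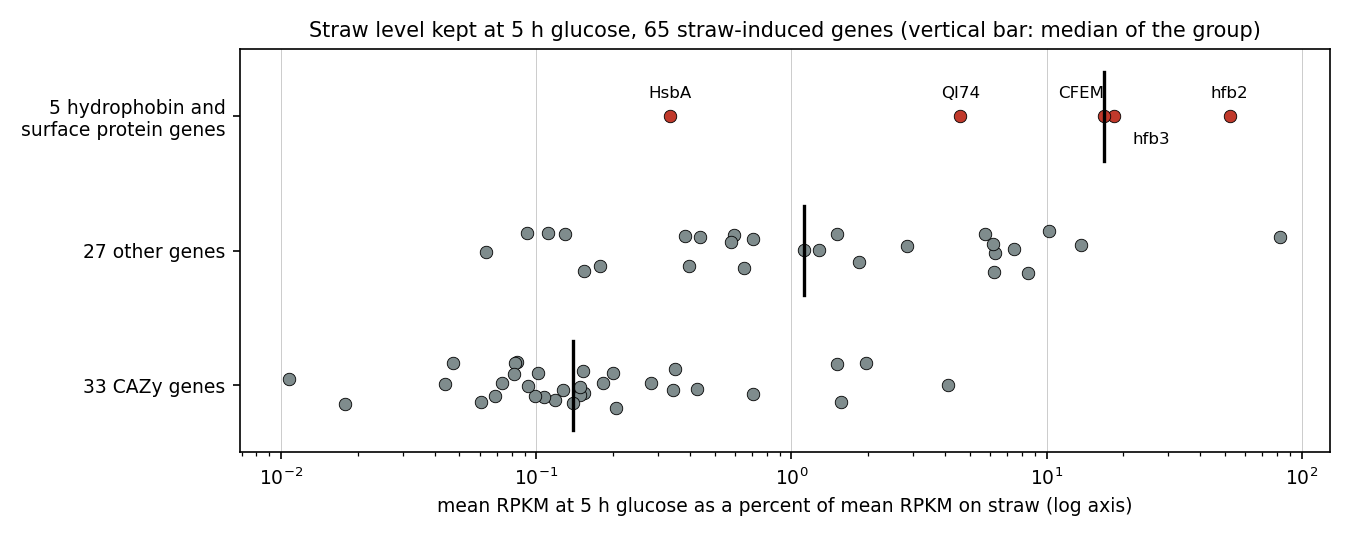
Mean RPKM at 5 h glucose as a percent of mean RPKM on straw (log axis) for the 5 hydrophobin and surface protein genes, 27 other straw-induced genes and 33 straw-induced CAZy genes, 1 point a gene, with a bar at each median (16.8%, 1.12% and 0.139%). The points of *hfb2*, *hfb3*, the CFEM-domain gene and the QI74 orthologue lie to the right of all CAZy genes and the HsbA-domain gene lies among them.

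The genes whose profile over the 8 libraries was most like that of each of the 5 were sought among all genes tested, by Pearson's r of log2(TMM-normalized CPM + 1), as a description. For the CFEM-domain gene the closest was a peptidyl arginine deiminase gene of the straw-induced list (80980, r = 0.996), with 10.1 ± 1.63 RPKM at 5 h glucose (SD, n = 2), 119 ± 13.4 RPKM on straw (SD, n = 3) and 0.0896 ± 0.0778 RPKM at 48 h glucose (SD, n = 3). The other closest genes had r between 0.994 and 0.998 and are not in the straw-induced list. Their annotation was not looked up here. No member of the 5 was among the 2 genes closest to another member. Among themselves, r ranged from 0.939 to 0.985 for the 6 pairs without the HsbA-domain gene and from 0.616 to 0.842 for the 4 pairs with it. These coefficients rest on 3 conditions.

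The other cell wall and surface protein genes that could be identified were all lower on straw than the 5 genes. Of 6 further genes annotated as wall or surface proteins, 5 could be tested, and 1 was higher and 0 lower at 5 h glucose than on straw, beside 28.5% and 30% of all genes tested, with a median log2 fold change of 0.90 against -0.04 for all genes, although with the RPKM totals all 5 fitted values were negative. The gene that passed was the GPI-anchored, *meu10*-related one (68067), with 30.1 ± 19.7 RPKM at 5 h glucose (SD, n = 2), 36.0 ± 2.08 RPKM on straw (SD, n = 3) and 22.0 ± 1.98 RPKM at 48 h glucose (SD, n = 3). The fitted log2 fold change of 5 h glucose over straw was 0.90 under TMM (adjusted p = 0.00118, edgeR) and -0.27 with the RPKM totals (adjusted p = 0.417). Another CFEM-domain gene (123039), related to Rbt5p of *Candida albicans*, had 54 reads in the straw libraries and 0 at 48 h glucose, and was called higher on straw (adjusted p = 8.07e-05, edgeR), as were 30.6% of all genes tested. With 3 reads per library as the limit at 48 h glucose it was at least 3.21-fold higher on straw. At 1.20 ± 0.193 RPKM on straw (SD, n = 3) it was expressed far below the CFEM-domain gene of the straw-induced list, and at 5 h glucose it had 1.12 ± 0.960 RPKM (SD, n = 2). The conidiospore surface protein gene *cmp1* (72379) had 1 read at 5 h glucose, 17 reads on straw and 1 read at 48 h glucose, over all libraries of a condition, and did not pass the filter.

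Receptors of the PTH11 type, which in plant-pathogenic fungi sense the surface on which a hypha lies and some of which carry CFEM domains, were expressed at low levels. Of 5 such genes, 3 could be tested, and 2 were higher and 1 lower at 5 h glucose than on straw (28.5% and 30% of all genes tested), while 0 were higher and 2 lower on straw than at 48 h glucose, where 30.6% of all genes tested were higher and 28.2% lower. A receptor gene that did not pass the filter on low counts (69500) had 1 read at 5 h glucose, 49 reads (2.11 ± 0.666 RPKM, SD, n = 3) on straw and 0 reads at 48 h glucose. With 3 reads per library as the limit at 48 h glucose it was at least 2.93-fold higher on straw. The receptor gene 62462 had 6.47 ± 1.85 RPKM at 5 h glucose (SD, n = 2), against 2.36 ± 0.696 RPKM on straw and 5.06 ± 1.82 RPKM at 48 h glucose (SD, n = 3 each). The receptor gene 55561 had the same course, with 9.83 ± 0.533 RPKM at 5 h glucose (SD, n = 2), against 6.03 ± 1.26 RPKM on straw and 8.96 ± 1.82 RPKM at 48 h glucose (SD, n = 3 each). Both passed the test under TMM for 5 h glucose over straw (adjusted p of 8.29e-08 and 1.21e-06, edgeR) and for straw over 48 h glucose (1.28e-06 and 2.23e-05), where with the RPKM totals the lower straw level of 55561 had an adjusted p of 0.0527. The receptor gene 122795 was lower at 5 h glucose, with 1.44 ± 0.373 RPKM (SD, n = 2), than on straw, with 11.6 ± 0.175 (SD, n = 3; adjusted p = 2.82e-05, edgeR).

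Of 8 genes for enzymes that build or trim the cell wall, 6 could be tested, and 3 were higher and 1 lower on straw than at 48 h glucose (30.6% and 28.2% of all genes tested), while 2 were higher and 2 lower at 5 h glucose than on straw (28.5% and 30%). With the RPKM totals 5 passed as higher for straw over 48 h glucose and 4 as lower for 5 h glucose over straw, beside 59.5% and 67.3% of all genes tested. Among these was the mannosidase gene 67844, with 2.95 ± 2.06 RPKM at 5 h glucose (SD, n = 2), 5.22 ± 0.987 RPKM on straw and 2.08 ± 0.539 RPKM at 48 h glucose (SD, n = 3 each), which passed neither test under TMM. The 3 that were higher on straw under TMM are annotated as GPI-anchored mannosidases. The one that was lower was the candidate chitin synthase (55341), with a log2 fold change of -0.56 under TMM (adjusted p = 0.00933, edgeR) that was 0.26 with the RPKM totals (adjusted p = 0.237). The largest of these changes was that of 55802, with 12.3 ± 2.86 RPKM (SD, n = 3) on straw, against 0.646 ± 0.193 (SD, n = 3) at 48 h glucose, and a log2 fold change of 3.43 (adjusted p = 9.73e-10, edgeR). At 5 h glucose it had 0.897 ± 0.118 RPKM (SD, n = 2) and was lower than on straw (log2 fold change -2.48, adjusted p = 1.23e-06, edgeR). Another mannosidase gene (53542) was lower at 5 h glucose as well, with 4.58 ± 1.73 RPKM (SD, n = 2), against 22.3 ± 2.57 (SD, n = 3) on straw. The mannosidase gene 69123 had 9.91 ± 0.541 RPKM (SD, n = 3) on straw, against 2.73 ± 0.426 (SD, n = 3) at 48 h glucose, and its log2 fold change of -0.46 at 5 h glucose over straw did not pass the test (adjusted p = 0.108, edgeR), whereas with the RPKM totals it was -1.77 (adjusted p = 1.72e-05). The genes that were higher at 5 h glucose than on straw under TMM encode a glucanosyltransferase of family GH16 (65406) and the same chitin synthase. With the RPKM totals neither passed, with log2 fold changes of 0.49 (adjusted p = 0.171) and -0.21 (adjusted p = 0.387).

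Because conidia also carry hydrophobins, 5 genes taken as sporulation genes were followed in the same libraries, *cmp1* among them. All have an annotation that names spores or sporulation except 54395, which is annotated only as the transcriptional regulator FlbA. The summed RPKM of these sporulation genes lay between 5.08 and 7.72 at 5 h glucose, between 23.9 and 26.5 on straw and between 12.0 and 17.2 at 48 h glucose. Of the 4 that could be tested, 0 were higher and 2 lower at 5 h glucose than on straw (28.5% and 30% of all genes tested), and 1 was higher and 1 lower on straw than at 48 h glucose (30.6% and 28.2%). With the RPKM totals 3 were lower at 5 h glucose than on straw and 2 higher on straw than at 48 h glucose, beside 67.3% and 59.5% of all genes tested. The gene that was higher on straw (67408), a possible homologue of AMA1 of *Saccharomyces cerevisiae*, which acts in meiosis and spore wall assembly, had 1.70 ± 0.240 RPKM at 5 h glucose (SD, n = 2), 11.7 ± 0.743 RPKM on straw and 2.38 ± 0.269 RPKM at 48 h glucose (SD, n = 3 each). The gene 62467, annotated only from its sequence as perhaps required for sporulation, was the other one, with 7.87 ± 1.12 RPKM (SD, n = 3) on straw, against 9.33 ± 2.62 (SD, n = 3) at 48 h glucose, and with the RPKM totals it did not pass (log2 fold change -0.25, adjusted p = 0.36). The 3 counts of 0 given for these lists and the receptors and wall proteins were also 0 at an unadjusted p below 0.05 in edgeR and at an adjusted p below 0.05 in DESeq2. The part of spores in the hydrophobin levels was not tested.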

How the data were processed

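Total RNA of mycelia was depleted of rRNA and sequenced on the SOLiD platform (50 bp reads), 1 library for each culture. BioScope was used by the authors for mapping to assembly version 2.0 of JGI, and the deposited count of each gene model is its number of sense reads, not normalized. HTSeq is named in the submitters' processing notes. The authors also deposited RPKM values, for which the count is divided by the length of the transcript and by a total for the library, calculated here back from the values (7838128 to 16471040 reads).

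The deposited models carry no transcript IDs. The 65 straw-induced genes were joined to them by their mean RPKM in the 3 conditions, to within 0.005, which gave 1 model for each. Coordinates are from RefSeq on the same assembly. The genes and gene lists were chosen with earlier results of these data known. The genes named are the 5 in full and those ranked beside them in the level kept at 5 h glucose. The 2 genes most like each in profile were also sought, and list members with an adjusted p below 0.05 are named. Of the 10 most similar genes, 9 are outside the straw-induced list. They were not looked up in other annotation and are given as a range. The wall, receptor, enzyme and sporulation lists were taken from supplementary annotation tables that cover part of the genes, and are incomplete. Other hydrophobin genes were not analysed here.

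Counts were tested with edgeR 4.0.16 (R 4.3.3): TMM, filterByExpr, quasi-likelihood tests from a single model of the 8 libraries, and Benjamini-Hochberg adjustment over the 7211 genes tested. The model was tested on simulated data with known fold changes. These were balanced in direction and left most genes unchanged, so the simulation did not test the TMM scaling. Shares and within-library ratios (0.5 added to each count) were compared by two-sided exact permutation over libraries with Python 3.11.15, scipy 1.17.1 and pandas 2.3.3. Intervals for ratios of few reads are exact (Clopper-Pearson, 95%), and detection limits rest on 3 reads per library. The alternatives were DESeq2 1.42.0, the library totals behind the RPKM, no filter on low counts, only the compared conditions in the model, the replicate number as a block, straw libraries 1 and 3 averaged, leaving out each library in turn, shares of counts, TMM-normalized CPM ratios, and 1 added to each count. The study calls the replicates independent cultures, and p values cover only the spread between them.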

Additional observations from a re-analysis of the deposited data

How the results depend on the processing

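The calls of *hfb3*, the QI74 orthologue and the CFEM-domain gene for 5 h glucose over straw and over 48 h glucose, of the HsbA-domain gene over straw and of *hfb2* over 48 h glucose kept their direction and their side of the threshold under all 14 alternatives tried for each. The call of *hfb2* for 5 h glucose over straw did so under 11 of 14. Its log2 fold change was -0.94 with the RPKM totals and ranged from -0.36 to 0.55 over the fits that left out 1 library, with adjusted p values between 0.0111 and 0.655 over all alternatives. That of the HsbA-domain gene over 48 h glucose ranged from -3.51 to 2.68 when 1 library was left out. With only the 2 conditions in the model this gene did not pass the filter on low counts. The number of genes called in each comparison, both directions together, stayed within 1.5 times under every alternative. The calls by direction did not. With the RPKM totals the genes called higher for 5 h glucose over straw went from 2056 to 443, and those called lower from 2166 to 4850. With ratios of TMM-normalized CPM in place of RPKM, the straw level kept at 5 h glucose was 116% for *hfb2*, 43.6% for *hfb3*, 11.1% for the QI74 orthologue, 1.00% for the HsbA-domain gene and 42.1% for the CFEM-domain gene. Leaving out 1 library gave 26.8% to 77.6% for *hfb2*, 14.5% to 22.3% for *hfb3*, 16.0% to 18.4% for the CFEM-domain gene, 4.04% to 5.15% for the QI74 orthologue and 0% to 0.671% for the HsbA-domain gene, whose log2 fold change over straw ranged from -11.8 to -5.66. The difference in the log2 ratio of *hfb3* to the CFEM-domain gene lay between -0.29 and 0.46 when 1 library was left out, and the other 9 pairs kept their direction. For straw over 48 h glucose, a description, the fitted values of *hfb2* and the QI74 orthologue were 9.28 and 9.81 with the RPKM totals. Libraries with the same number did not deviate together (correlations of deviations between -0.03 and 0.15). With the replicate number as a block, 4097 genes were called for 5 h glucose over straw and the log2 fold change of *hfb2* was 0.15 (adjusted p = 0.634), and no call of the 5 genes changed. Depth limits the HsbA-domain gene most, with 4 reads at 5 h glucose and 3 at 48 h glucose. The 5 h glucose condition has 2 libraries, which differed by 1.89-fold in *hfb2* under TMM.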
